A study of Homo sapiens with 6 samples.

Results

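The transcripts described here are those of 36 human genes that carry glucose into the cell, break it down to pyruvate and decide what becomes of the pyruvate. The members were taken by symbol: 2 glucose transporters, 2 hexokinases, glucose-6-phosphate isomerase, 3 phosphofructokinase 1 isozymes, 4 genes that set the level of fructose 2,6-bisphosphate, 2 aldolases, triose phosphate isomerase, 6 genes of the steps from glyceraldehyde phosphate to pyruvate, 2 lactate dehydrogenases, 4 pyruvate dehydrogenase kinases, 5 genes of the pyruvate dehydrogenase complex, both subunits of the mitochondrial pyruvate carrier and 2 monocarboxylate transporters. All 36 were found among the 58884 genes of the table. The rule reads gene names, not fold changes, but the list was chosen with earlier results of these data known. Bulk RNA-seq was done on untreated cells grown in RPMI1640 medium with serum. KYSE70 is an established line of human esophageal squamous cell carcinoma (ESCC) whose NFE2L2 gene, which encodes the transcription factor NRF2, carries an activating missense mutation. NRF2null-KYSE70 was grown out of a single KYSE70 clone after CRISPR-Cas9 had shifted the reading frame in NFE2L2 exon 2, and the study still detected a shorter NRF2 protein in it. Each line had 3 libraries, which the labels call replicates without naming separate cultures. The p-values therefore measure the spread between these libraries, which may be technical, and not the spread between clones.

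Glycolysis splits 1 glucose into pyruvate in the cytosol and yields ATP and NADH without oxygen. Flux is set mainly at glucose entry, hexokinase and phosphofructokinase 1, and the last of these responds strongly to fructose 2,6-bisphosphate. Pyruvate is then either reduced to lactate by lactate dehydrogenase and exported through monocarboxylate transporters, or imported by the mitochondrial pyruvate carrier and oxidised by the pyruvate dehydrogenase complex, which pyruvate dehydrogenase kinases switch off. Squamous carcinomas are known for high glucose uptake, and NRF2 is best known in metabolism for its control of the pentose phosphate pathway and of NADPH production.

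The values are normalized counts, which are the reads of a gene scaled by the size factor of the library. The libraries held between 52072801 and 63975313 reads. NFE2L2 itself stood at 61.4% of its KYSE70 level in NRF2null-KYSE70, with 9839 to 10039.8 normalized counts against 5803 to 6434, a check that only shows less NFE2L2 transcript because a frameshift need not remove it. All 15 squamous epithelial markers examined were detected in both lines. Their summed level was 391343 to 398613 in KYSE70 and 274442 to 285553 in NRF2null-KYSE70, with 9 of the 15 lower and 5 higher, and its part in the results below was not tested. All 5 simple epithelial markers were detected too, at summed levels of 106643 to 107399 against 87583 to 88781, with 1 of the 5 lower and 3 higher. The lower one was KRT8, the most abundant of the 5, whose mean went from 67546 to 40993 in the clone. EPCAM and CDH1 were higher, as was KRT19 at a very low level (means of 8.65 in KYSE70 and 24.4 in NRF2null-KYSE70). The smaller sum therefore does not describe most of this list. Markers of other cell types were mostly under 10 normalized counts in both lines, namely 4 of 7 for fibroblasts (COL1A2 and DCN at 0), 3 of 4 for endothelium (KDR at 0) and 4 of 5 for leukocytes. Their summed levels were 1384 to 1618 against 485 to 638 for fibroblasts, mostly COL1A1, 133 to 149 against 275 to 450.3 for endothelium, mostly VWF, and 0 to 10.5 against 40.2 to 47.9 for leukocytes, mostly PTPRC in NRF2null-KYSE70. The part of these markers was not tested either. In a bulk sample, fewer cells that express a gene and less RNA of it per cell cannot be told apart.

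The 2 lines differed at most steps of the pathway, mostly by small amounts and in both directions. A gene was called at an adjusted p under 0.05 by limma, and of the 35 members with enough reads to be tested, 18 were lower in NRF2null-KYSE70, 11 higher and 6 not called. Over all 15994 genes tested, 57.6% were called, 28.3% lower and 29.3% higher, so a call by itself was common in this comparison. The median log2 fold change (NRF2null-KYSE70 over KYSE70) of the members was -0.14, beside -0.01 for all genes. Their median absolute log2 fold change was 0.31, beside 0.36 for all genes. When a change of 0.5 or more on the log2 scale was asked for as well, 4 members were lower and 5 higher; this rule called 30.7% of all genes, 15.8% lower and 14.9% higher. With the study's limit of 1 on the log2 scale, 0 members were lower and 3 higher, whereas 14.7% of all genes were called, 7.43% lower and 7.23% higher. PFKFB4, the lowest member, stood at -0.84 by limma, DESeq2 and edgeR, so no rule on p could add a lower member at this limit. The 2 sets of libraries stood apart without overlap for 28 of the 35 tested members and for 63.4% of all genes. In the plot of fold changes by role, most members from TPI1 to LDHA lie to the left of 0, and PFKFB2, PFKFB3, TIGAR and both monocarboxylate transporters lie to the right.

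**Figure D1:**
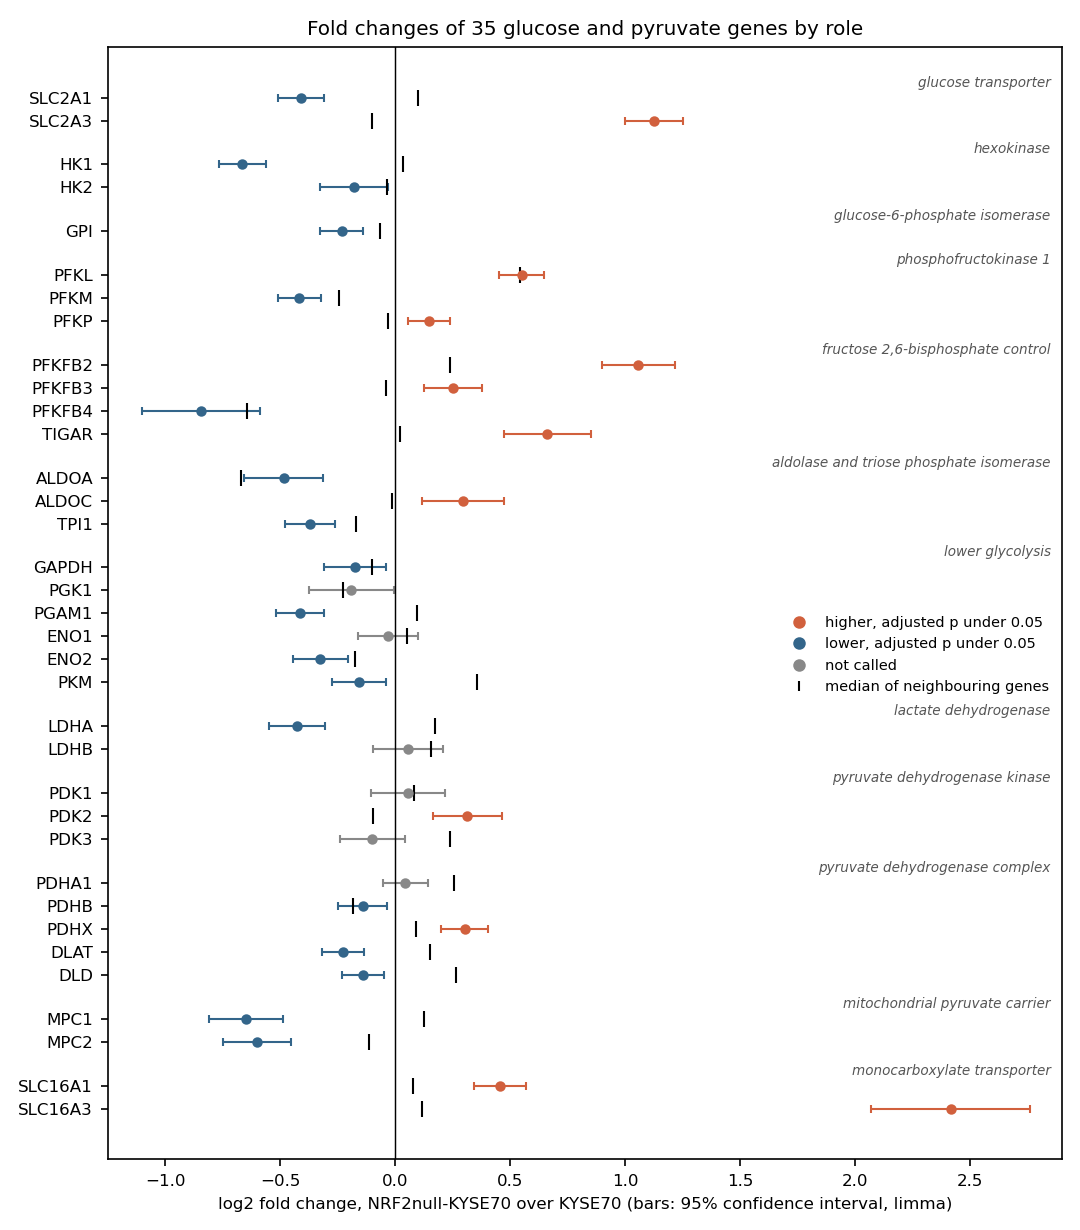
Log2 fold change of NRF2null-KYSE70 over KYSE70 (x axis) for the 35 tested members (y axis, grouped by role), as points with 95% confidence intervals from limma (3 libraries per line); black ticks mark the median log2 fold change of the 20 tested protein-coding genes on either side. Blue members were lower (18), orange members higher (11) and grey members not called (6); SLC16A3 lies farthest right at 2.42 and PFKFB4 farthest left at -0.84.

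The glucose transporter transcripts moved in opposite directions, with SLC2A1 lower and SLC2A3 higher in NRF2null-KYSE70. SLC2A1 encodes GLUT1, the basal glucose transporter of most dividing cells, and SLC2A3 encodes GLUT3, which has a higher affinity for glucose. SLC2A1 (chr1:42925353-42958893, hg38) had normalized counts of 24293, 24595 and 24683 in the KYSE70 libraries and 19268, 17763 and 18395 in the NRF2null-KYSE70 libraries. Every NRF2null-KYSE70 library lay below every KYSE70 library, and the mean was 75.3% of that in KYSE70 (log2 fold change -0.41, SE 0.0453, adjusted p = 6.38e-06 by limma over all genes). For SLC2A3 (chr12:7919230-8019007), the KYSE70 libraries held 2853, 2949.8 and 3149 normalized counts and the NRF2null-KYSE70 libraries 6747, 6098 and 6681. This was 2.18 times the KYSE70 mean, with no overlap (log2 fold change 1.12, SE 0.0581, adjusted p = 5.94e-09). Levels of different genes were compared only after division by the length of their merged exons. On that scale SLC2A3 made up 9.99% ± 0.389 (SD, n = 3) of the reads per kilobase of the pair in KYSE70 and 24.3% ± 0.526 in NRF2null-KYSE70. SLC2A1 remained the larger of the pair in all 6 libraries, and the summed level of both was 0.896 times that in KYSE70. SLC2A14 is a near-identical neighbour of SLC2A3 that could share reads with it, and its mean was 30.2 normalized counts in NRF2null-KYSE70 and 3.71 in KYSE70.

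Hexokinases trap glucose in the cell as glucose 6-phosphate. HK1 (chr10:69269984-69401884), the form found in most tissues, stood at 10815, 10919 and 10815 normalized counts in KYSE70 against 7104, 6562 and 6888 in NRF2null-KYSE70. The KYSE70 libraries differed from each other by little, and all 3 NRF2null-KYSE70 libraries lay far below them at a mean of 63.1% (log2 fold change -0.66, SE 0.0463, adjusted p = 8.99e-08). HK2, the inducible form common in tumours, changed much less, from 7881 ± 270.0 to 6979 ± 755 (SD, n = 3; log2 fold change -0.18, adjusted p = 0.0374). For HK2 the highest NRF2null-KYSE70 library lay inside the KYSE70 range, and leaving out any one of 5 of the 6 libraries, dropping the filter on low values or limma's trend, or subtracting the median of neighbouring genes (neighbour-centring) ended the call. Per kilobase, HK1 gave 54.2% of the pair in KYSE70 and 45.9% in NRF2null-KYSE70, and the summed level was 0.748 times that in KYSE70. Which of the pair was the larger in NRF2null-KYSE70 depends on the length used, since with the longest transcript HK1 gave 66.0% of the pair in KYSE70 and 58.1% in NRF2null-KYSE70. GPI, which turns glucose 6-phosphate into fructose 6-phosphate, had 26668, 26014 and 26411 normalized counts against 22230.1, 22117 and 22999 and was lower without overlap at 85.1% of KYSE70 (log2 fold change -0.23, SE 0.0425, adjusted p = 0.000446).

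The committed step, phosphofructokinase 1, is a tetramer built from the liver (PFKL), muscle (PFKM) and platelet (PFKP) isozymes, and the 3 genes did not move together. PFKL (chr21:44300051-44327376) rose from 7669, 7554 and 7539 normalized counts to 11425, 10757 and 11167, without overlap (log2 fold change 0.55, SE 0.0446, adjusted p = 3.63e-07). Genes around PFKL on the chromosome were higher by a like amount, and its call did not outlast subtraction of their median. PFKM fell, from 11202 ± 191 to 8397 ± 167 (SD, n = 3; log2 fold change -0.42, adjusted p = 3.91e-06); its neighbours were lower too, at a median of -0.24, and its own value was -0.17 after subtraction. PFKP had the most reads per kilobase of the 3, with 13906, 14005 and 14082 normalized counts in KYSE70 against 15892, 15215 and 15423 in NRF2null-KYSE70. Its rise to 1.11 times the KYSE70 mean was small but also without overlap (log2 fold change 0.15, SE 0.0424, adjusted p = 0.00951). The call on PFKP was lost when each library was scaled to its total (adjusted p = 0.16) and under quantile normalization (adjusted p = 0.72). The family total differed by a factor of only 1.05, whereas the composition changed: PFKL went from 20.3% to 28.3% of the family, PFKM from 36.8% to 26.3% and PFKP from 42.9% to 45.4%.

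Fructose 2,6-bisphosphate, the main activator of phosphofructokinase 1, is made and removed by the bifunctional PFKFB enzymes and removed by TIGAR. PFKFB2, an isozyme controlled by phosphorylation in heart and other tissues, had 1727, 1707 and 1482 normalized counts in the KYSE70 libraries against 3651, 3304 and 3273 in the NRF2null-KYSE70 libraries. All libraries of NRF2null-KYSE70 lay well above those of KYSE70, at 2.08 times the mean (log2 fold change 1.06, SE 0.0723, adjusted p = 7.43e-08). PFKFB4 went the other way, from 1475, 1549 and 1863 normalized counts to 803, 838 and 1096. It was among the most variable members within a line, but its libraries still did not overlap and its mean was 56.0% of KYSE70 (log2 fold change -0.84, SE 0.118, adjusted p = 5.02e-05). This call too was lost when the median of its chromosomal neighbours was subtracted. PFKFB3, the isozyme with the strongest bias towards synthesis, had 4482, 4490.0 and 4476 normalized counts against 5266, 4990.3 and 5786, a rise of 0.25 on the log2 scale (adjusted p = 0.00225). It remained the main form, at 63.2% of the PFKFB reads per kilobase in KYSE70 and 64.3% in NRF2null-KYSE70. Around it PFKFB2 and PFKFB4 changed places: PFKFB2 went from 13.9% to 24.7% and PFKFB4 from 23.0% to 11.0%. TIGAR, a phosphatase first described as a p53 target that lowers fructose 2,6-bisphosphate, stood at 638, 739 and 694 normalized counts in KYSE70 against 1177, 1036 and 1064 in NRF2null-KYSE70, 1.58 times as high (log2 fold change 0.66, SE 0.0867, adjusted p = 2.81e-05). PFKFB2 and PFKFB3, which can make the activator, and TIGAR, which removes it, were thus all higher in NRF2null-KYSE70.

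**Figure D2:**
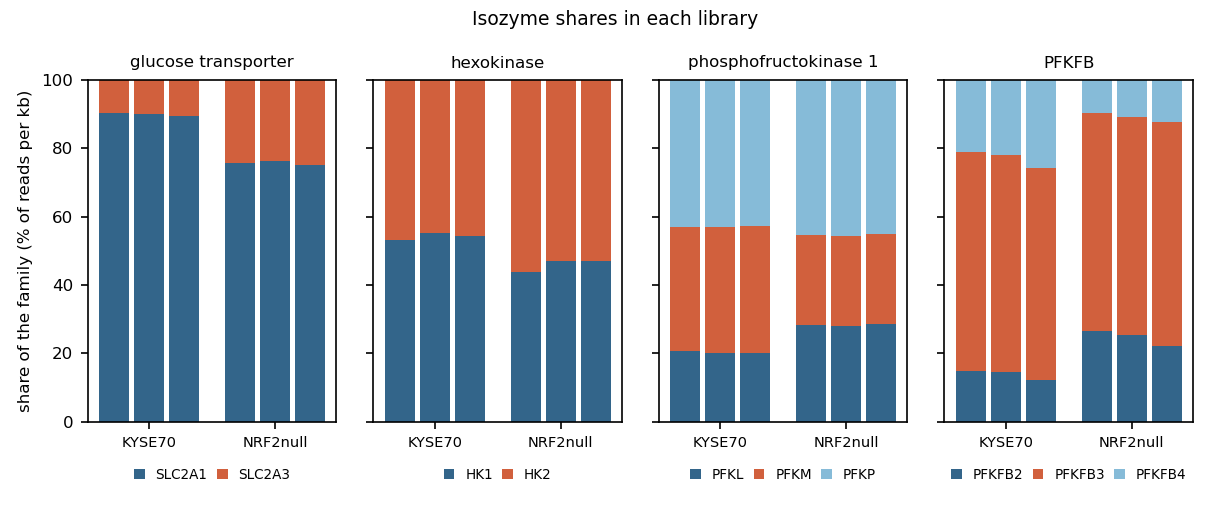
Share of each isozyme in the reads per kilobase of exon of its family (y axis, %) in each of the 6 libraries (bars, 3 per line), for the 2 glucose transporters, 2 hexokinases, 3 phosphofructokinase 1 isozymes and 3 PFKFB isozymes. SLC2A3 went from 9.99% to 24.3%, HK2 from 45.8% to 54.1%, PFKL from 20.3% to 28.3% and PFKFB2 from 13.9% to 24.7% (means of 3). The spread within a line was widest in the PFKFB panel, where PFKFB4 ran from 21.1% to 25.8% in KYSE70.

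Over 9 families, 22 such shares were compared between the lines with exact two-sided permutation tests. For 19 of them the lines did not overlap and p was 0.1, the smallest that 3 against 3 libraries allow (0.116 after Benjamini-Hochberg adjustment over the 22), so this design could not bring a share below 0.05. The exceptions were PFKFB3 (exact p = 0.4), PDK1 (0.3) and PDK4 (1). In a family of 2 genes the shares mirror each other, so the 22 are not separate results. The 19 include both aldolase shares, which rest on an uncertain ALDOA level (below). Single-gene levels did not overlap for 63.4% of all genes tested, so the count of shares is not read further. The summed level of the family reached the same smallest p in 7 of the 9 families and overlapped between the lines for aldolase and enolase. Shares depend on the length used. With the longest transcript in place of the merged exons the differences kept their sign but changed in size, as given at the end, and the PFKFB3 share no longer overlapped (exact p = 0.1).

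From aldolase to lactate dehydrogenase the values were mostly lower. Of the 11 members on this stretch, 7 were lower, 1 was higher and 3 were not called, beside the 28.3% lower and 29.3% higher of all genes. Of the 7 lower, GAPDH, TPI1 and ENO2 lie near each other on chromosome 12, between bases 6534512 and 6923698. Genes around them on the chromosome had median log2 fold changes of -0.10, -0.17 and -0.17. Whether these genes changed independently of each other was not tested. Aldolase cuts fructose 1,6-bisphosphate into its triose phosphates. ALDOA, usually the main aldolase of proliferating cells, had only 919 ± 17.5 normalized counts in KYSE70 against 657 ± 26.6 in NRF2null-KYSE70 (SD, n = 3; log2 fold change -0.48, adjusted p = 0.000173). In GENCODE v44, 89.8% of the exon bases of the canonical ALDOA transcript lie also in exons of other annotated genes. The main one, on the same strand, held 122 to 128 normalized counts in KYSE70 and 40.6 to 79.9 in NRF2null-KYSE70. How the counting treated reads that fall in exons of more than one gene was not stated in the sources used here, so the level of ALDOA is uncertain and its share of the aldolase family is not read here. ALDOC, the form best known from brain, was higher, from 2513 ± 226 to 3085 ± 309 (log2 fold change 0.29, adjusted p = 0.00824), a call lost when limma was run without its trend (adjusted p = 0.0672). TPI1, which interconverts the triose phosphates, stood at 75425, 75919.8 and 79316 normalized counts in KYSE70 against 56564, 60059 and 61899.5 in NRF2null-KYSE70. These values did not overlap, and the mean was 77.4% of KYSE70 (log2 fold change -0.37, SE 0.0502, adjusted p = 3.76e-05).

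GAPDH, which oxidises glyceraldehyde 3-phosphate and makes the NADH of glycolysis, was the most abundant member per kilobase of exon, at 111392 normalized counts per kilobase in KYSE70 and 98799.9 in NRF2null-KYSE70. Its normalized counts were 260476, 263553 and 276661 in KYSE70 and 220458, 239340.2 and 250376 in NRF2null-KYSE70. The lines did not overlap, but the gap was narrow and the fold small (log2 fold change -0.17, SE 0.0613, adjusted p = 0.0271), and the call was lost without KYSE70 library 2, without KYSE70 library 3 or without NRF2null-KYSE70 library 2, and also without the filter or the trend and under neighbour-centring. PGK1, which makes the first ATP, did not pass the test and its libraries overlapped (95% interval of the log2 fold change before adjustment -0.38 to -0.0027, adjusted p = 0.077). PGAM1, which moves the phosphate group of phosphoglycerate, fell from 42547 ± 1482 to 31909.6 ± 1198 (SD, n = 3; log2 fold change -0.42, adjusted p = 9.47e-06), the largest change among these 6 genes. ENO1, the main enolase, had 231636 ± 8193 normalized counts in KYSE70 against 226859 ± 12964 in NRF2null-KYSE70, and the interval of its log2 fold change ran from -0.16 to 0.10 (adjusted p = 0.68). ENO2, the enolase known as a neuronal marker, was lower (-0.32, adjusted p = 0.000224) and gave under 3% of enolase reads per kilobase in either line. PKM, which makes pyruvate and the second ATP, went from 255425 ± 6084 to 229076 ± 8226 (log2 fold change -0.16, adjusted p = 0.0256), and its call was lost without any 1 of 4 libraries.

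LDHA reduces pyruvate to lactate and restores NAD+. It stood at 168162, 176937 and 177745 normalized counts in the KYSE70 libraries against 121723, 132899 and 135046 in the NRF2null-KYSE70 libraries. There was no overlap, the mean was 74.5% of KYSE70 (log2 fold change -0.43, SE 0.0562, adjusted p = 3.07e-05), and the call held under all 19 alternative analyses. LDHB, whose subunit favours the reverse reaction, was not called, with 1381 ± 95.8 and 1435 ± 15.5 normalized counts (interval -0.09 to 0.21, adjusted p = 0.505). LDHB shares 76.5% of its canonical exon bases with another annotated gene, which was listed at 0 in all libraries, and its level is as uncertain as that of ALDOA. TIGAR, GAPDH, PDHA1 and DLAT share between 20% and 50% of these bases with other genes, and 21 members share none. Together the 36 members took 2.31% ± 0.0627 (SD, n = 3) of all reads in KYSE70 and 1.94% ± 0.103 in NRF2null-KYSE70 (exact two-sided permutation p = 0.1). GAPDH, PKM, ENO1, LDHA and TPI1 alone took 1.77% and 1.47%.

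**Figure D3:**
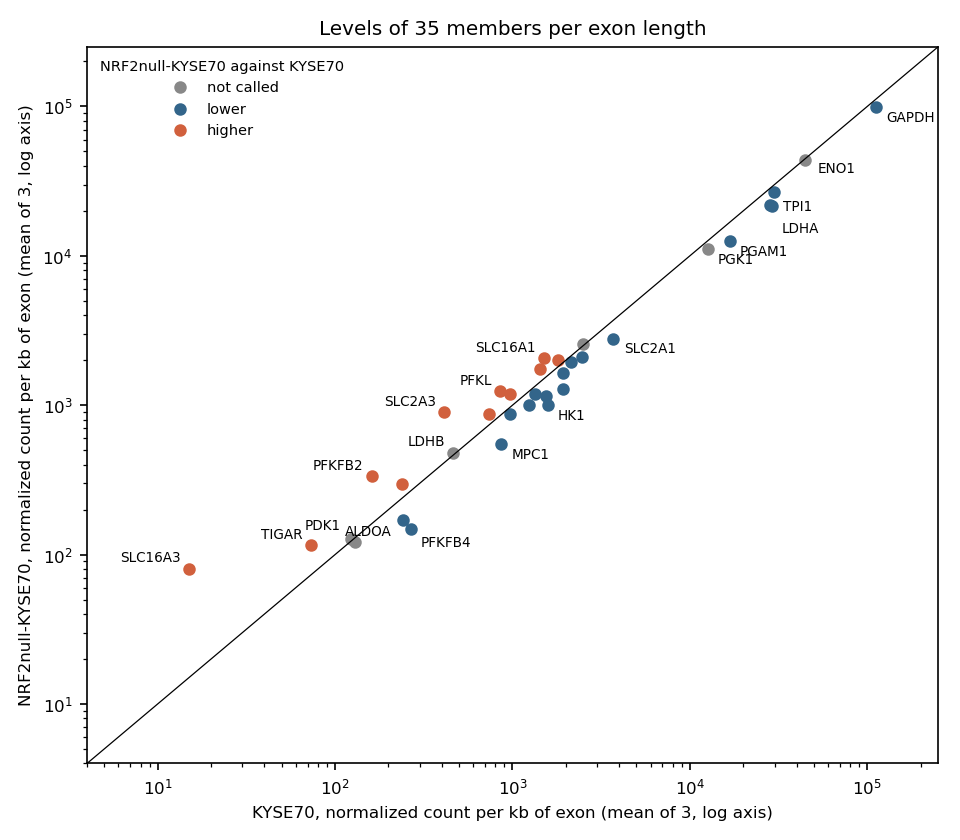
Normalized counts per kilobase of merged exons of the 35 tested members in KYSE70 (x axis) and NRF2null-KYSE70 (y axis), as means of 3 libraries on log axes with the line of equality. The abundant members GAPDH, TPI1, LDHA and PGAM1 lie just below the line and ENO1 almost on it. Rarer members lie on both sides, with SLC16A3, PFKFB2, TIGAR and SLC2A3 above the line and PFKFB4, ALDOA and MPC1 below it.

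The most abundant members also moved together between libraries of the same line. TPI1, GAPDH, PGK1, PGAM1, ENO1, PKM and LDHA are the 7 members with over 10000 normalized counts per kilobase in KYSE70. In KYSE70, all 7 had their lowest value in library 1 and their highest in library 3, and the same held for all 7 in NRF2null-KYSE70. Their values were thus not independent of each other. SLC2A1 and HK1 were not lowest in library 1 of NRF2null-KYSE70 but highest there. The numbers only follow the order of columns in the table, and what set the libraries apart was not tested. The spread within a line was nevertheless small, with a median coefficient of variation over the tested members of 3.39% in KYSE70 and 5.07% in NRF2null-KYSE70, beside 6.55% and 8.16% over all genes tested.

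Transcripts of both subunits of the mitochondrial pyruvate carrier, a heterodimer of MPC1 and MPC2, were lower in NRF2null-KYSE70. MPC1 (chr6:166364919-166383013) had 1261, 1373 and 1334 normalized counts in KYSE70 against 800.3, 873 and 858 in NRF2null-KYSE70. MPC2 (chr1:167916675-167937072), on another chromosome, had 4851, 4967 and 5448 against 3035, 3552 and 3497. Neither gene had overlapping libraries, and the means stood at nearly the same share of KYSE70, 63.8% for MPC1 (log2 fold change -0.65, SE 0.0738, adjusted p = 8.31e-06) and 66.0% for MPC2 (log2 fold change -0.60, SE 0.0685, adjusted p = 8.48e-06). Both calls held under all 19 alternatives. MPC2 had the more reads per kilobase of the pair in both lines, 1929 against 859 in KYSE70 and 1274 against 548 in NRF2null-KYSE70. For MPC2, 8.37% of the canonical and 21.8% of the merged exon bases lie in exons of DCAF6 on the opposite strand. DCAF6 had 4867 to 5179 normalized counts, and how reads in that stretch were counted was not stated in the sources used here. MPC1 shares no exon bases with other genes.

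The pyruvate dehydrogenase complex turns pyruvate into acetyl-CoA, and its 5 genes changed by little and not in 1 direction. PDHA1, the E1 subunit that the kinases phosphorylate, had the most reads per kilobase of merged exons, with 12564, 12215 and 12470.4 normalized counts in KYSE70 against 13316, 12726 and 12410.3 in NRF2null-KYSE70. The libraries overlapped and the gene was not called (interval -0.05 to 0.14, adjusted p = 0.413). Its E1 partner PDHB was lower (log2 fold change -0.14, adjusted p = 0.0263), a call lost without any 1 of 4 libraries and under neighbour-centring, where the value turned to 0.042. The E2 gene DLAT (-0.23, adjusted p = 0.000502) and the E3 gene DLD (-0.14, adjusted p = 0.0122) were lower, whereas PDHX, which anchors E3 to the core, was higher (0.30, adjusted p = 0.000121). Of the kinases that switch the complex off, PDK2 had the most reads per kilobase of merged exons, with 1351, 1264 and 1276 normalized counts against 1570.1, 1543 and 1732. That order is uncertain, because the merged exons of PDK3 span 17456 bases and its canonical transcript only 1741, and because of the exons that PDK2 shares. It was the only kinase called, higher without overlap (log2 fold change 0.31, SE 0.0695, adjusted p = 0.00178), with 62.8% of its canonical exon bases also in exons of SAMD14 on the opposite strand, which itself had at most 11.6 normalized counts in a library. PDK1, the hypoxia-inducible kinase, had 1818 ± 82.3 and 1896 ± 176 normalized counts (interval -0.10 to 0.22, adjusted p = 0.532), and PDK3 had 2251 ± 110.3 and 2103 ± 122 (interval -0.24 to 0.04, adjusted p = 0.212). PDK4, the kinase induced by fasting, was close to undetected, with 2, 0 and 1 reads in KYSE70 and 0, 8 and 0 in NRF2null-KYSE70, and was not tested.

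The largest fold change among the 35 tested members was that of a lactate transporter. SLC16A3 encodes MCT4, a low-affinity lactate exporter of glycolytic cells, and SLC16A1 encodes MCT1, which carries lactate and pyruvate in both directions. SLC16A3 (chr17:82217934-82261129) had 169, 118 and 131 normalized counts in the KYSE70 libraries against 862, 629.5 and 742 in the NRF2null-KYSE70 libraries. The lowest NRF2null-KYSE70 library was more than 3 times the highest KYSE70 library, and the ratio of means was 5.35 (log2 fold change 2.42, SE 0.159, adjusted p = 5.2e-08). SLC16A1 rose as well, from 9918, 9284 and 9579 to 14061, 12552 and 12940.0 normalized counts, without overlap (log2 fold change 0.46, SE 0.0523, adjusted p = 8.57e-06). Even so, SLC16A3 remained the minor form per kilobase, at 0.984% ± 0.153 of the pair in KYSE70 (SD, n = 3) against 3.72% ± 0.361 in NRF2null-KYSE70, and the summed level of both genes was 1.41 times that in KYSE70. Both calls held under all 19 alternatives, with a log2 fold change of SLC16A3 between 2.30 and 2.56. Part of the SLC16A3 exons, 18.5% of the canonical bases, lies in exons of other genes, mainly CSNK1D on the opposite strand. CSNK1D had 5281 to 5671 normalized counts in KYSE70 and 7265 to 7671 in NRF2null-KYSE70, so it was higher there too. The library kit does not mark strand, so CSNK1D reads in that stretch cannot be told apart from those of SLC16A3. Their part in the SLC16A3 change was not tested. Monocarboxylate transporters need a chaperone to reach the membrane, and the chaperone genes BSG (0.23, adjusted p = 0.000826) and EMB (0.34, adjusted p = 0.000372) were also higher.

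**Figure D4:**
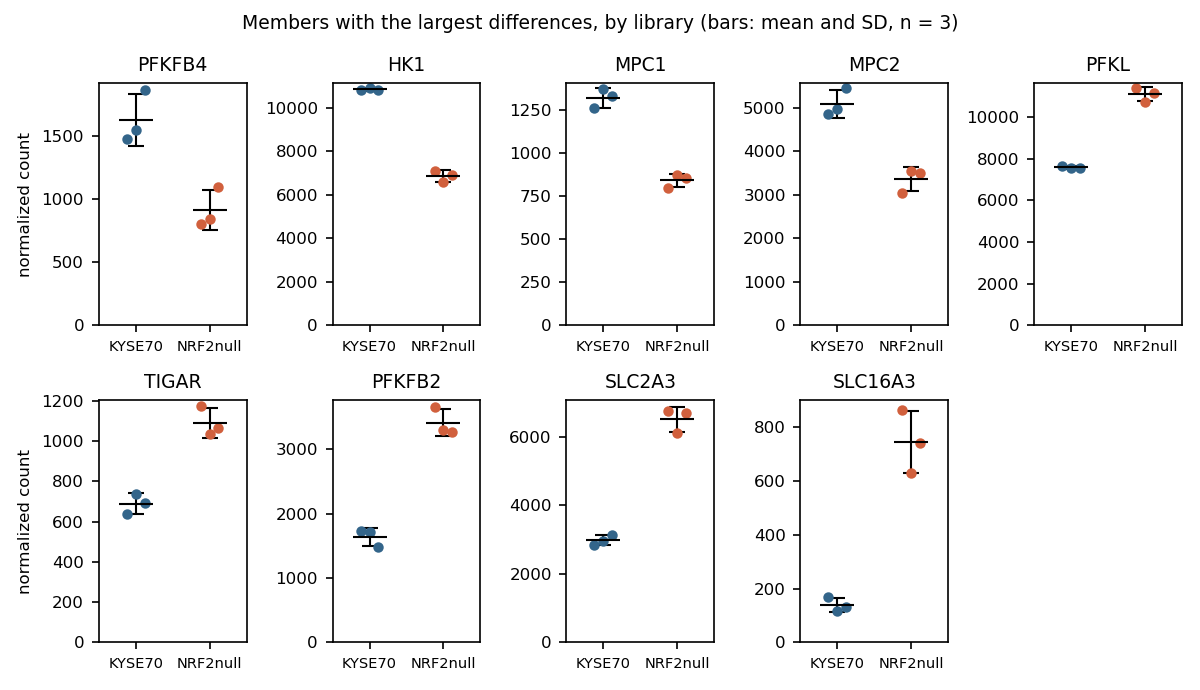
Normalized counts (y axes, from 0) of the 9 called members that changed by 0.5 or more on the log2 scale, in each library (points) with mean and SD (n = 3 per line). In each panel the points of KYSE70 and NRF2null-KYSE70 do not overlap; PFKFB4, HK1, MPC1 and MPC2 were lower and PFKL, TIGAR, PFKFB2, SLC2A3 and SLC16A3 higher in NRF2null-KYSE70.

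Many glycolytic genes are known targets of the hypoxia-inducible factors, whose binding sites hold the core ACGTG. MYC, another regulator of these genes, binds the E-box CACGTG. NRF2 acts at antioxidant response elements with the core TGACNNNGC. These letters were searched on both strands in the 250 bases before each RefSeq transcription start (GRCh38.p14), for which 65 windows of 33 members were at hand. SLC2A3, PFKFB2 and SLC16A1, all called higher, had no window and are missing from every count below. The E-box contains the hypoxia core on both strands, so the first 2 searches overlap. A window with ACGTG was found for 20 members, and 35.4% of member windows held it, beside 18.5% of all 35116 windows and 22% of those of the tested genes. CACGTG was in 12.3% of member windows, in 6.34% of all windows and in 8.19% of those of tested genes. TGACNNNGC was in 9.23% of member windows, 10.9% of all and 11.8% of those of tested genes, the members being HK1, PFKL, ALDOC, GAPDH, PKM and MPC1, of which 4 were lower and 2 higher. The 20 members with ACGTG comprised 10 lower, 7 higher and 3 not called, beside 28.3% of all genes lower and 29.3% higher. Because the members without a window were all higher, lower and higher are not compared by these counts. Such a match describes the sequence only. The windows of LDHA (chr11:18394313-18394562, plus strand), of SLC16A3 (chr17:82228792-82229041, plus strand) and of an internal start of HK1 (chr10:69334364-69334613, plus strand) are shown because they belong to members with clear changes, 2 of them lower and 1 higher, and together hold each kind of match, in capitals and read 5′ to 3′.
LDHA: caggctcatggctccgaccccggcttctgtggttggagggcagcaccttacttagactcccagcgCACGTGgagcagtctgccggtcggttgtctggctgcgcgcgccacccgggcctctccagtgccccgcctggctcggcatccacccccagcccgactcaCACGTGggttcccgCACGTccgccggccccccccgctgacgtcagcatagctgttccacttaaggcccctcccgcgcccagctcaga
SLC16A3: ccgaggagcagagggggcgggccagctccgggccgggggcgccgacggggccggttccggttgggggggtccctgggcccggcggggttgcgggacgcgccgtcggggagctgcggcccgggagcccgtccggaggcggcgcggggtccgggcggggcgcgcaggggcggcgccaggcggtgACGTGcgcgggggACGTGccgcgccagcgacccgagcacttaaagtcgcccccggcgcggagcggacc
HK1: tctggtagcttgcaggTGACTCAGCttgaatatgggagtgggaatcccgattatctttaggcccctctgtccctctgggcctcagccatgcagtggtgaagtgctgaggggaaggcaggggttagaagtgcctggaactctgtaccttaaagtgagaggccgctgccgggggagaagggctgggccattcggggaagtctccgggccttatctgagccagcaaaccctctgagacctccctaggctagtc
This window of LDHA, which was lower, holds the E-box 185 and 87 bases before the start and a further hypoxia core on the opposite strand at 73 bases. This window of SLC16A3, which rose most, holds the hypoxia core at 68 and 55 bases before the start and no E-box. The HK1 window holds an antioxidant response core at 234 bases before its start and neither of the others. The other windows at hand for LDHA, SLC16A3 and HK1 held no such match. Which starts these cells use was not tested.

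By general knowledge 21 of the members are hypoxia-inducible. Of these, 12 were lower, 6 higher and 3 not called. Of the 14 other members tested, 6 were lower, 5 higher and 3 not called. Of all genes tested, 28.3% were lower and 29.3% higher, and nothing about the hypoxia group is read from these counts. Well-known members of the hypoxia group stood on opposite sides, with SLC2A1 (-0.41), LDHA (-0.43), PGAM1 (-0.42) and PFKFB4 (-0.84) lower and SLC2A3 (1.12), SLC16A3 (2.42) and PFKFB3 (0.25) higher on the log2 scale. HIF1A itself, the gene of the oxygen-regulated subunit, rose by 0.49 on the log2 scale (adjusted p = 2.66e-06), and MYC was not called (0.03, adjusted p = 0.631).

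Because NRF2null-KYSE70 is a single clone, each member was set beside its chromosomal neighbours, the 20 tested protein-coding genes on either side. For 10 of the 35 members the median log2 fold change of these neighbours lay beyond 0.2 in either direction. The like share over all genes was not worked out, so this count is not read further. The neighbours of PFKL had a median of 0.54, the same size as PFKL itself (0.55). Those of PFKFB4 stood at -0.65 beside -0.84 for the gene, and those of ALDOA at -0.67 beside -0.48. With the neighbour median subtracted, PFKL (adjusted p = 0.877) and PFKFB4 (adjusted p = 0.18) were no longer called, and ALDOA changed sign to 0.19. Around SLC16A3 (0.12), SLC2A3 (-0.10), TIGAR (0.02), HK1 (0.03), MPC1 (0.13) and MPC2 (-0.11) the neighbours stood near 0, and these 6 calls held after subtraction. PFKFB2 had neighbours at 0.24 and also kept its call. Subtraction moved other called members by more than 1.5 times without ending the call. It brought the log2 fold change closer to 0 for PFKM (-0.42 to -0.17), TPI1 (-0.37 to -0.20) and ENO2 (-0.32 to -0.15). It took the value farther from 0 for PKM (-0.16 to -0.52), DLD (-0.14 to -0.41) and DLAT (-0.23 to -0.38). Whether the clone differs from its parent in DNA copies of these regions was not tested.

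The other genes around the pathway were taken from lists of 99 genes, of which 72 had enough reads to be tested, 16 of them lower and 32 higher, beside 28.3% of all genes lower and 29.3% higher. Among 21 tested isozymes and partners outside the 36, 5 were lower and 7 higher. Among the 7 tested genes of gluconeogenesis and pyruvate carboxylation, 3 were lower and 2 higher. PCK2, the mitochondrial enzyme that makes phosphoenolpyruvate from oxaloacetate, rose from 3419, 3357 and 3406 to 8972, 9628 and 8513 normalized counts, without overlap (log2 fold change 1.41, SE 0.0533, adjusted p = 3.48e-10). Of the 6 genes that reactivate or lipoylate the pyruvate dehydrogenase complex, 0 were lower (also 0 at an unadjusted p under 0.05 by limma, with DESeq2 and with edgeR) and 4 were higher. PDP1, the phosphatase that undoes the action of the PDK kinases, had 5455, 5545 and 5225 normalized counts in KYSE70 against 10907, 11260.2 and 10444 in NRF2null-KYSE70 (log2 fold change 1.01, SE 0.0485, adjusted p = 3.16e-09). The transcripts of a phosphatase that switches the complex on and of a kinase that switches it off, PDP1 and PDK2, were thus both higher, by 1.01 and 0.31 on the log2 scale, and the difference between them was not tested.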

How the data were processed

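RNA of 3 libraries each of KYSE70 and NRF2null-KYSE70 was sequenced. The authors trimmed reads with cutadapt 1.12, checked them with FastQC 0.11.5, aligned them to hg38 with STAR 2.6.90c, counted reads per gene with featureCounts 1.5.1 and normalized with DESeq2. Whether counting used strand was not given in the sources used here. The deposited signal is normalized counts. Columns carry only the line's name, so libraries are numbered in table order. Values were whole multiples of 1 read (100% within 0.01), so counts were recovered.

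The test was limma 3.58.1 (R 4.3.3; mean-variance trend, two-sided) on log2(normalized count + 1) of the 15994 genes with a mean of at least 10, with Benjamini-Hochberg adjustment over all of them. Fold changes on this scale understate those of low genes. Positions and exon lengths came from GENCODE v44 on hg38, promoter windows from RefSeq. The paper names a RefSeq annotation, while the deposited genes carry Ensembl identifiers. The exons used for counting may therefore differ from those used here for lengths and shared bases. The fit was tested on simulated data. Neighbour-centring subtracts the median log2 fold change of the 20 tested protein-coding genes on either side.

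The members and lists were chosen with earlier results of these data known. All members were described by role. Per-library values were given for called members that changed by 0.5 or more on the log2 scale and for the member with most reads per kilobase in each role. Genes of the other lists were to be named where called with a change of 1 or more on that scale and a mean of at least 100; further ones were chosen after their values were seen. Alternatives were other pseudocounts, filters and scalings, limma without trend or with robust eBayes, DESeq2 1.42.0, edgeR 4.0.16, each library left out, neighbour-centring, pseudogene reads added, fold thresholds and transcript lengths.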

Additional observations from a re-analysis of the deposited data

How the results depend on the processing

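Of the 29 members called, 20 (12 lower, 8 higher) kept direction and call under all 19 alternatives. The others were HK2, PFKL, PFKP, PFKFB4, ALDOA, ALDOC, GAPDH, PKM and PDHB, which lost the call under at least 1 alternative. No filter on low values ended the calls of HK2, GAPDH and PKM, and limma without the trend those of HK2, ALDOC, GAPDH and PDHB. PGK1 was called lower under total scaling, quantile normalization and without NRF2null-KYSE70 library 3, and PDK3 under total scaling and neighbour-centring. The cause was not tested. The number of members lower and higher moved by over 1.5 times only with a fold threshold, to 4 and 5 at 0.5 on the log2 scale and to 0 and 3 at 1. Total scaling lowered the median of all genes by 0.075 on the log2 scale and turned the calls over all genes from 4519 lower and 4687 higher to 5381 and 3964.

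Neighbour-centring changed the sign of the log2 fold change of ALDOA to 0.19, PGK1 to 0.039, PDHB to 0.042, LDHB to -0.10, PDK1 to -0.026 and PDHA1 to -0.21 (adjusted p = 0.00165 for PDHA1, the only one of these then called). Total scaling gave -0.018 for LDHB, -0.018 for PDK1 and -0.030 for PDHA1, and quantile normalization gave 0.024 for ENO1 and -0.073 for PDHA1. With each library left out in turn, the log2 fold change ran from -0.070 to 0.013 for ENO1, from -0.0014 to 0.088 for LDHB and from -0.015 to 0.11 for PDK1, and the difference in the PDK4 share from -0.042 to 0.123 percentage points. With the longest transcript length, the share differed by -12.7 points for SLC2A1 and 12.7 for SLC2A3, 6.13 for PFKL, -9.83 for PFKM, 3.70 for PFKP, 2.66 for PFKFB3, -0.445 for LDHA, 0.445 for LDHB, -3.55 for SLC16A1 and 3.55 for SLC16A3. Reads of pseudogenes named after a member came to at most 0.645% of its own, and adding them changed no call. No paired analysis was possible because the columns of the table carry no replicate numbers.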

Other observations

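Glycogen and hexose metabolism next to the 36 genes held the widest fall on the lists examined. GBE1, the enzyme that puts branches into glycogen, had 1478, 1627 and 1591 normalized counts in the KYSE70 libraries and 2.03, 6.86 and 12.6 in the NRF2null-KYSE70 libraries. The mean in NRF2null-KYSE70 was 0.457% of that in KYSE70 (log2 fold change -7.83, SE 0.404, adjusted p = 5.87e-09, limma), so the transcript was almost undetected in the clone. Of the 22 tested genes of this list, 8 were lower and 8 higher, beside the shares over all genes (28.3% and 29.3%). GYG1, which primes glycogen, stood at -0.69 on the log2 scale and KHK, which phosphorylates fructose, at -0.62, both lower. The phosphorylase genes PYGL (0.65) and PYGB (0.37), which release glucose 1-phosphate from glycogen, and GFPT1 (0.70), the first enzyme of the hexosamine pathway, were higher. GBE1 met the rule for named genes, and the others were chosen after their values were seen.

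Of 16 transcriptional and signalling regulators of glycolysis, 0 were lower (also 0 at an unadjusted p under 0.05 by limma, with DESeq2 and with edgeR) and 11 higher, beside 28.3% of all genes lower and 29.3% higher. Both catalytic subunits of the energy sensor AMPK rose, PRKAA1 by 0.50 and PRKAA2 by 0.71 on the log2 scale. TXNIP, which limits glucose uptake, rose by 0.26, and MLX, a partner of glucose-responsive transcription factors, by 0.34. HKDC1, a hexokinase-like gene, had 14.2, 14.5 and 4.22 normalized counts in KYSE70 and 166, 148 and 113 in NRF2null-KYSE70 (log2 fold change 3.72, SE 0.42, adjusted p = 7.52e-06), with a mean under 100 over the 6 libraries. These genes were chosen after their values were seen.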
